A study of Mus musculus with 6 samples.

Results

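The core circadian clock was examined in C0321 tumors through 10 genes, taken as all entries of the count table whose gene symbol was Arntl, Clock, Per1, Per2, Per3, Cry1, Cry2, Nr1d1, Nr1d2 or Dbp. The list was drawn up by gene name, with earlier results of these data known, and no measured value entered its rule. All 10 were in the table, as 17 of its 20648 RefSeq transcripts, and were 10 of the 13730 genes that these transcripts make up and of the 10902 that passed the filter on low counts. C0321 is a mouse triple-negative breast cancer (TNBC) line derived from an Lfng-/- mouse, so the deletion was shared by all tumors, and it is a single line with mesenchymal, claudin-low features. Female FVB mice, 6 to 10 weeks old, had received its cells in the mammary fat pad, in equal parts of Matrigel and PBS. The 3 SS tumors came from mice given the drug at 60 mg/kg by mouth daily for 14 days once a mass could be felt, and the 3 Control tumors from mice that were not. The sample labels write the drug as a sulfate and the study as sulindac sulfide, a COX inhibitor, and the control is described as saline in one place and as vehicle in another. The hour at which the tumors were taken is not given in the sources used here, and nor are the lighting schedule and the hour of dosing.

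In the clock of mammalian cells, the ARNTL (BMAL1) and CLOCK proteins form a dimer that binds E-box sequences and switches on the Per and Cry genes, Nr1d1, Nr1d2 and Dbp. PER and CRY proteins then return to block that dimer, while the nuclear receptors NR1D1 and NR1D2 (REV-ERB alpha and beta) repress Arntl. In tissues sampled around the clock, Arntl is therefore high when Nr1d1, Nr1d2, Dbp and the Per genes are low, and Dbp, a transcription factor that binds D-box sequences, swings widely with the hour. A bulk tumor averages over its cells, and fewer cells of a type, less RNA per cell and cells out of phase with each other cannot be told apart in these data.

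Clock proteins act on their targets through short DNA elements, and 6 promoters with a match to such an element are shown for the letters they hold. RefSeq promoter windows on GRCm38.p6, from 250 bases before to 50 bases after a start site, were matched by symbol for 9 of the 10 genes, all but Per2, and gave 13 windows. The windows were searched on both strands for the E-box CACGTG, the E-box variant CACGTT, the D-box TTATGTAA and AGGTCA, the core of the element bound by NR1D1 and its activating rival RORA. Of 32851 windows in the whole table, 7.15% held CACGTG, 4.68% CACGTT, 0.938% TTATGTAA and 16.3% AGGTCA. The 250 bases before the start site are printed 5′ to 3′ on the gene's own strand, with the matches in capitals (AACGTG and TGACCT are CACGTT and AGGTCA read on the other strand). They lie at chr11:69098699-69098948 on the plus strand for the first start site of Per1, and on the minus strand at chr4:151044666-151044915 for Per3, chr10:85185055-85185304 for Cry1, chr2:92434070-92434319 for Cry2, chr11:98775378-98775627 for Nr1d1 and chr14:18239107-18239356 for Nr1d2.
Per1: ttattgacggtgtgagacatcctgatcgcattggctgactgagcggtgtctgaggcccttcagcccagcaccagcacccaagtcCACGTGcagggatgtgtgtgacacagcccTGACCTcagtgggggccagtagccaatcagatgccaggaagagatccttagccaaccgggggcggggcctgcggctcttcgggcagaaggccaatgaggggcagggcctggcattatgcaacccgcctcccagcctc
Per3: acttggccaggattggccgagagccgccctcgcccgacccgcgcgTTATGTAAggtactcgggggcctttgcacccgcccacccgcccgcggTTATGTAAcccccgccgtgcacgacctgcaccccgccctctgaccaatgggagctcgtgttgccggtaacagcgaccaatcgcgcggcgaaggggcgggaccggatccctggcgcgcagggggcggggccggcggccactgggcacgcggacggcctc
Cry1: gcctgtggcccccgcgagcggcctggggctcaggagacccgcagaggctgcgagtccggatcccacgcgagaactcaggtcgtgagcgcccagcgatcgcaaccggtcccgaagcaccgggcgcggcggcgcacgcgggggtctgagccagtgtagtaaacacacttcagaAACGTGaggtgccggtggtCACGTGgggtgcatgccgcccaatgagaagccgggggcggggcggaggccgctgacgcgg
Cry2: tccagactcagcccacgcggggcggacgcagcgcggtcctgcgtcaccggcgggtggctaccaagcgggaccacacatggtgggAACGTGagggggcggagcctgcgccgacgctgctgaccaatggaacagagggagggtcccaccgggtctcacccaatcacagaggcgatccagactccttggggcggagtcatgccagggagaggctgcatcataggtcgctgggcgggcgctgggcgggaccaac
Nr1d1: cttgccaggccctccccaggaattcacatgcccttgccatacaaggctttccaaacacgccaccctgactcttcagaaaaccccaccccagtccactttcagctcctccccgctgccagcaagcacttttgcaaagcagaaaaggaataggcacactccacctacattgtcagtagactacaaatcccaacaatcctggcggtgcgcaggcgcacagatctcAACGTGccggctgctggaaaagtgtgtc
Nr1d2: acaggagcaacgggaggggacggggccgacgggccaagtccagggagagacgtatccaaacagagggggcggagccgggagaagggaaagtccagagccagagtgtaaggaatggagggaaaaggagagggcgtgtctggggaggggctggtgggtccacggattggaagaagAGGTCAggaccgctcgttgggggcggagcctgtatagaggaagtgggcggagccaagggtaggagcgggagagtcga

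Of the repressor genes with a window, Per1, Cry1, Cry2 and Nr1d1 held an E-box or its variant. Counted by the first base, these lay at -166 from the first of the 2 Per1 start sites, -60 and -79 for Cry1, -166 for Cry2 and -28 for Nr1d1. The windows of Per3, of Nr1d2 and of the second Per1 start site held neither. The bases just after the Cry2 and Nr1d1 start sites were not found in a GENCODE transcript. Per3 held 2 D-boxes, at -205 and -158. AGGTCA was found at -77 for Nr1d2, at -137 from the first Per1 start site, at 32 bases into the transcript from one of the Arntl start sites and at -119 from one of the Clock start sites. These are matches of letters only, and the window of Dbp held none of them.

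Totals ranged from 8468914 counts in SS tumor 2 to 24441522 in Control tumor 3, and 3 counts, the limit that a count of 0 allows, corresponded to 0.123 to 0.354 CPM, counts scaled to a common library size. TNBC is defined by low estrogen and progesterone receptors and unamplified HER2. Esr1 was at 4.48 to 6.40 CPM, Pgr at 0 to 3.82 CPM, Erbb2 at 17.1 to 22.4 CPM and the epithelial gene Epcam at 0.041 to 2.98 CPM, while the mesenchymal genes Vim and Fn1 were at 5875 to 8620 and 4077 to 6185 CPM. Of the keratins, also epithelial genes, Krt8 and Krt18 were at 417.2 to 544.5 and 59.5 to 98.1 CPM. Krt5 and Krt14 varied more, at 0 to 73.12 and 6.443 to 45.85 CPM. The tumors differed in genes of other tissues. Skeletal muscle genes (Acta1, Ckm, Myh4, Myh1, Tnnt3, Mylpf, Pvalb) summed to 5391, 10820 and 1095 CPM in Control tumors 1 to 3, against 327, 22590 and 12140 CPM in SS tumors 1 to 3, with all 7 detected in every tumor. Adipocyte genes summed to 142, 7.77 and 5.46 CPM in Control and 65.0, 90.5 and 11.6 CPM in SS tumors, most of it from Pck1, Plin1 and Lipe, with Pck1 at 58.3 CPM in Control tumor 1 and 33.1 and 41.5 CPM in SS tumors 1 and 2, and at 0 in the other 3. The defining gene Adipoq was at 0 to 0.596 CPM.

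Per kilobase of transcript, and within these tumors, the Rev-erb genes had the highest levels of the clock. The median level over the 6 tumors was 30.7 CPM per kb for Nr1d1 and 13.5 for Nr1d2, followed by Per1 at 8.86 and Clock at 5.48 CPM per kb. Arntl and Cry2 were level at 3.98 CPM per kb each, and Cry1 was at 2.46 CPM per kb. Dbp, with 0.862 CPM per kb, was below Cry1 in every tumor, and Per2 at 0.198 and Per3 at 0.189 CPM per kb were the lowest. Lengths are those of GENCODE transcripts matched to the RefSeq entries. The ranges over tumors of Nr1d1 (16.9 to 34.8 CPM per kb) and Nr1d2 (9.60 to 15.3 CPM per kb) did not overlap, and those of Nr1d2 and Per1 (6.84 to 10.7 CPM per kb) did. The ranges of Arntl and Cry2, of Arntl and Cry1, and of Per2 and Per3 overlapped as well, whereas Cry2 (3.62 to 4.47 CPM per kb) lay above Cry1 (1.62 to 3.36 CPM per kb) throughout.

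The first comparison asked whether the clock genes differed between SS-treated and Control tumors, and none passed adjustment over all genes. With p-values from the quasi-likelihood test of edgeR, adjusted by Benjamini-Hochberg, 0 of the 10 clock genes and 0 of the 10902 tested genes (0.0%) had an adjusted p under 0.05. The largest differences were in Per3, at 2.53-fold the Control level, and in Arntl, at 0.653-fold, and these were the clock genes with the smallest unadjusted p. At an unadjusted p under 0.05 there was 1 clock gene, Per3, against 6.36% of all tested genes (3.19% higher and 3.16% lower in SS). The CPM of the groups did not overlap for 3 clock genes, against 12.9% of all tested genes, namely Per3 and Cry2 above Control (6.51% of all genes) and Arntl below it (6.4%). With 3 tumors per group, complete separation gives an exact two-sided permutation p of 0.1, the smallest possible, which each of the 3 had. The log2 fold change was above 0 for 4 clock genes and below 0 for 6, with a median of -0.005, beside 49.8% above 0 and a median of -0.0013 over all tested genes. DESeq2's Wald test gave an adjusted p under 0.05 to 35 of 6039 genes (0.58%) and to 0 clock genes, 5 of which it left without an adjusted p for low counts. The labels do not tie the tumors to particular mice. The p-values of edgeR and DESeq2 set the difference between the groups against the spread within them, over these 6 tumors.

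**Figure D1:**
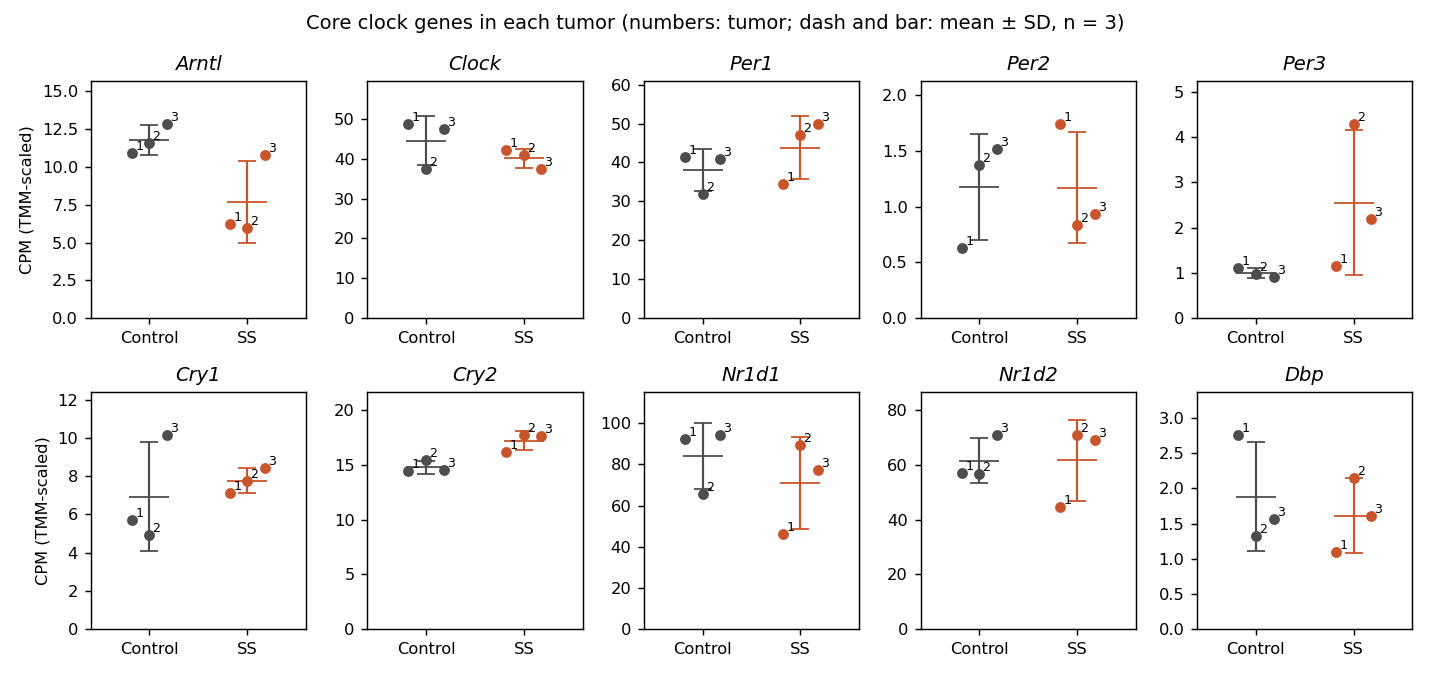
Level of each core clock gene in CPM (y axis, from 0, a scale of its own in each panel) in the 3 Control tumors (grey) and the 3 SS tumors (orange), numbered by tumor, with the mean and SD of each group. Only Arntl, Per3 and Cry2 have groups that do not overlap, and Per3 in SS spans 1.16 to 4.29 CPM.

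**Figure D2:**
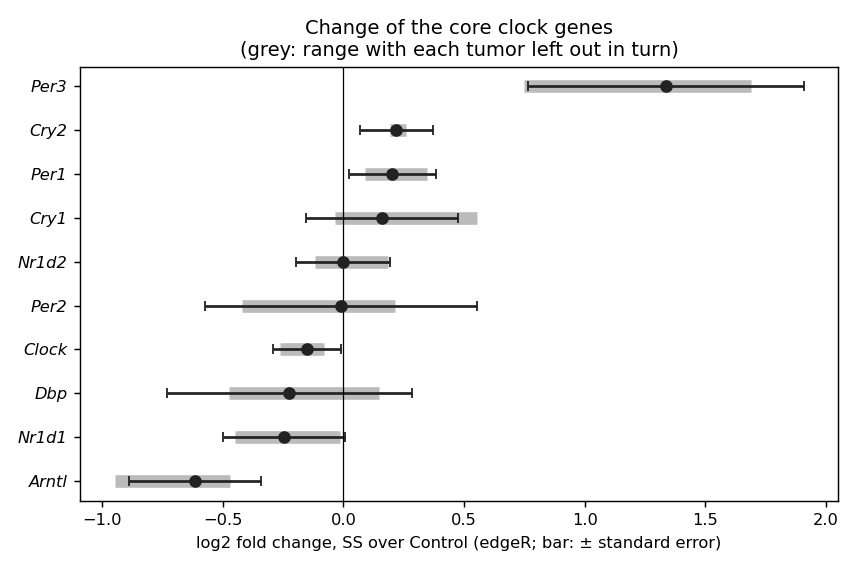
Log2 fold change of SS over Control from edgeR for the 10 genes (x axis), with the standard error (black bars) and the range of the value when each tumor is left out in turn (grey). Per3 lies at 1.34 and Arntl at -0.61, and the grey ranges of Per2, Cry1, Nr1d2 and Dbp cross 0.

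Arntl (chr7:113207465-113314127, plus strand, as deposited, on mm10, which is GRCm38) encodes the activator whose transcript usually marks the opposite phase to Dbp. It was at 10.9, 11.6 and 12.8 CPM in Control tumors 1 to 3, against 6.24, 5.96 and 10.8 CPM in SS tumors 1 to 3. All SS tumors lay below all Control tumors, but SS tumor 3 missed Control tumor 1 by little, and the 95% Poisson counting intervals of those tumors, 9.02 to 12.9 and 9.16 to 12.9 CPM, overlapped. The mean was 11.8 ± 0.987 CPM in Control and 7.67 ± 2.73 CPM in SS (SD, n = 3). This was a log2 fold change of -0.61 (SE 0.273) with an unadjusted p of 0.0554 and an adjusted p of 0.774 by edgeR's quasi-likelihood test. With each tumor left out it ran from -0.95 without SS tumor 3 (edgeR, unadjusted p 0.00408, adjusted p 0.805) to -0.47 without SS tumor 2 (edgeR, unadjusted p 0.147, adjusted p 0.845), and over the alternatives that gave one the adjusted p lay between 0.677 and 0.989 in fits across all genes, by edgeR among others. Clock, its partner, was steadier. It was at 48.8, 37.5 and 47.5 CPM in Control and 42.1, 40.9 and 37.4 CPM in SS tumors, with overlapping groups, a log2 fold change of -0.15 ± 0.141 (SE) and an adjusted p of 0.896 by edgeR.

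Of the Period genes, Per3 had the largest difference. Per3 (chr4:151003655-151044666, minus strand) was at 1.11, 0.983 and 0.903 CPM in Control and at 1.16, 4.29 and 2.20 CPM in SS tumors, from 14, 20 and 22 against 16, 36 and 26 counts. SS tumors 2 and 3 were the high tumors and SS tumor 1 was at the level of the Controls, since its counting interval of 0.664 to 1.89 CPM covered all 3 of them. The counting interval of SS tumor 2, 3.01 to 5.94 CPM, lay above those of the Controls, whose highest upper bound was 1.86 CPM. That of SS tumor 3, 1.43 to 3.22 CPM, overlapped those of Control tumors 1 and 2. It lay just above that of Control tumor 3, which ended at 1.37 CPM. This was a log2 fold change of 1.34 (SE 0.570) with an unadjusted p of 0.0482 and an adjusted p of 0.771 by edgeR's quasi-likelihood test, and it was 0.75 without SS tumor 2 (edgeR, unadjusted p 0.249).

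SS tumors 2 and 3 were also the tumors with the highest sums of skeletal muscle genes, and SS tumor 1 had the lowest sum. Among Control tumors, muscle genes were lowest in tumor 3 and highest in tumor 2, and the Per3 values, from 14 to 22 counts, had overlapping counting intervals and could not be ordered. With the mean log2 CPM of the muscle genes as a covariate, an alternative added after seeing the data, the log2 fold change of Per3 was 1.14 (edgeR, unadjusted p 0.0616, adjusted p 0.819). With the adipocyte genes as a covariate it was 1.23 (edgeR, unadjusted p 0.0900, adjusted p 0.789).

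Per1, which also responds to glucocorticoids and to cyclic AMP, was at 41.5, 31.9 and 40.9 CPM in Control and 34.5, 47.0 and 49.9 CPM in SS tumors. SS tumors 2 and 3 were again the highest, SS tumor 1 lay among the Controls, and the log2 fold change was 0.20 ± 0.180 (SE; adjusted p 0.890 by edgeR). Per2, a repressor of ARNTL and CLOCK like its paralogs, was barely expressed, at 0.632, 1.38 and 1.52 CPM in Control and 1.74, 0.835 and 0.930 CPM in SS tumors. With 7 to 37 counts per tumor its groups overlapped throughout, and its log2 fold change of -0.0096 ± 0.565 (SE; adjusted p 0.997 by edgeR) had an error as wide as that of Per3.

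The Cryptochromes, whose proteins are the stronger repressors of the dimer, both had small differences. Cry2 (chr2:92403647-92434070, minus strand) was at 14.4, 15.4 and 14.5 CPM in Control and 16.2, 17.8 and 17.7 CPM in SS tumors, so every SS tumor lay above every Control tumor by a small step. Its mean was 14.8 ± 0.578 CPM in Control and 17.2 ± 0.884 CPM in SS (SD, n = 3), a log2 fold change of 0.22 ± 0.151 (SE; unadjusted p 0.186, adjusted p 0.860 by edgeR), and it lay between 0.19 and 0.26 with each tumor left out. Cry1 was at 5.69, 4.92 and 10.2 CPM in Control and 7.11, 7.75 and 8.45 CPM in SS tumors. The SS tumors lay close together inside a wide Control range, whose top value came from Control tumor 3, and the log2 fold change was 0.16 ± 0.317 (SE; adjusted p 0.940 by edgeR).

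Nr1d1, the receptor that represses Arntl, was at 92.5, 65.7 and 94.6 CPM in Control and at 46.1, 89.7 and 77.4 CPM in SS tumors. SS tumor 1 was the low tumor and the other two SS tumors lay within the Control range, giving a log2 fold change of -0.25 ± 0.253 (SE; adjusted p 0.906 by edgeR) and of -0.01 without SS tumor 1. Its paralog Nr1d2 was at 57.0, 56.7 and 71.0 CPM in Control and 44.8, 71.2 and 69.0 CPM in SS tumors. SS tumor 1 was again lowest, and the group means of 61.6 ± 8.19 and 61.7 ± 14.7 CPM (SD, n = 3) gave a log2 fold change of -0.0005 ± 0.195 (SE; adjusted p 1.00 by edgeR).

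Dbp, the output gene, was at 2.77, 1.33 and 1.56 CPM in Control and at 1.09, 2.15 and 1.61 CPM in SS tumors, from 15 to 38 counts. Control tumor 1 was highest, SS tumor 2 second and SS tumor 1 lowest, with overlapping groups and a log2 fold change of -0.22 ± 0.506 (SE; adjusted p 0.946 by edgeR). The highest tumor was 2.54 times the lowest. For a gene that swings widely with the hour this was no more than the ratio of 2.75 in Per2 or 4.75 in Per3, and counting error at these depths is wide, with intervals of 0.967 to 2.51 CPM for SS tumor 3 alone. The ratio of highest to lowest tumor had a median of 2.06 over the clock genes and of 1.70 over the tested genes, where 334 genes with a 0 in some tumor were left out.

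Several clock genes have more than 1 RefSeq entry, and the deposited values show how reads were shared among them. The entries of Per1 were split 54.2% to 45.8% in every tumor, a fixed ratio of 1.183, so their values carry no information on which start site was used. Entries NM_001357070 and NM_007489 of Arntl likewise kept a ratio of 1.052 in every tumor. The third entry of Arntl, NM_001243048, took 54.5%, 19.5% and 62.9% of its counts in Control tumors 1 to 3, against 40.6%, 0.0666% and 82.8% in SS tumors 1 to 3. That share covered almost the whole scale within SS, with overlapping groups, and rested on 50 to 313 counts per tumor. In Per3, the entry NM_001289878 held 33.2% of the counts in SS tumor 2, or 11.9 estimated counts, and 3.28% in SS tumor 3, which is 0.853 of a count, and at most 0.117% elsewhere. Control tumor 1 had 99.0% of its 14 Per3 counts on NM_011067. Sums per gene, used for all other values, do not depend on these splits.

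**Figure D3:**
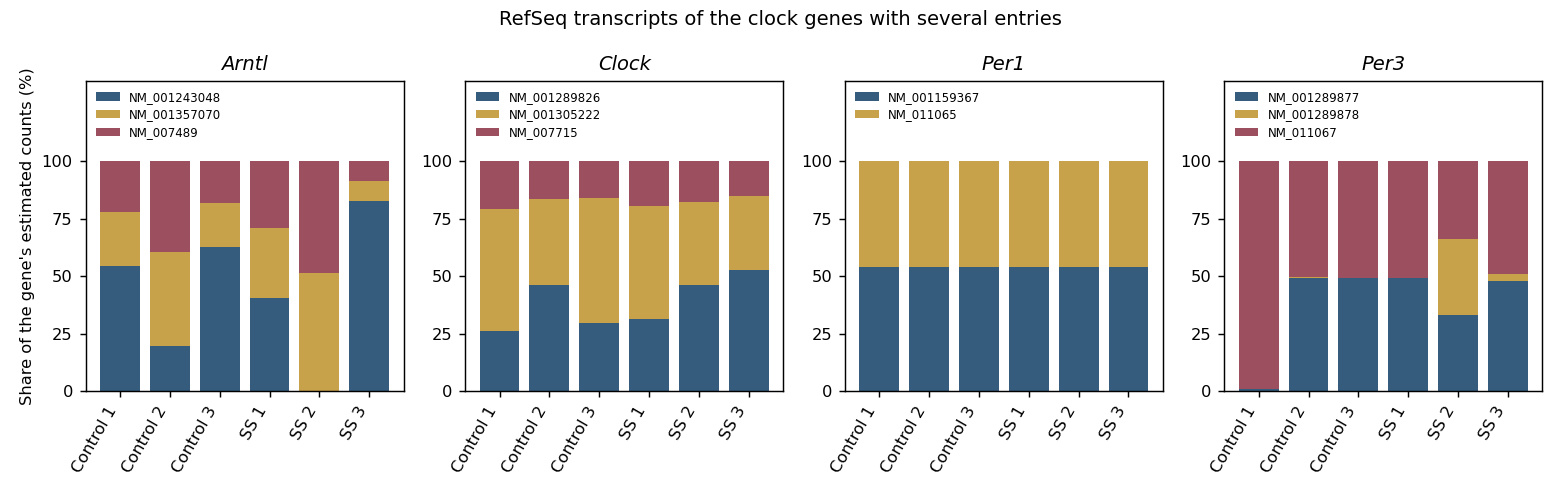
Share of each gene's estimated counts (y axis, %) given to each RefSeq entry (colors) in each of the 6 tumors (x axis) for the 4 clock genes with several entries. The Per1 bars are identical in every tumor, while the share of NM_001243048 in Arntl runs from 0.0666% to 82.8%.

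Exons of other genes lie on the opposite strand of some clock genes, and the strand setting used in counting is not given in the sources used here. In the GENCODE annotation 263 of the 3077 exonic bases of Nr1d1 overlap Thra, 539 of 2993 of Dbp overlap Sphk2, 295 of 6320 of Cry2 overlap D930015M05Rik and 33 of 7523 of Arntl overlap Gm45355. Counts of these 4 genes could hold reads of the partner if strand was not used.

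The phase relation between the genes was then read across the 6 tumors, on log2 CPM with a prior count of 2. Arntl, which in a running clock is opposite to Per1, Per2, Per3, Nr1d1, Nr1d2 and Dbp, had a negative correlation with 3 of these 6 and a positive one with the other 3. Pearson's r was -0.05 with Per1, -0.03 with Per2, -0.60 with Per3, 0.43 with Nr1d1, 0.31 with Nr1d2 and 0.11 with Dbp. For Arntl and Per3, Spearman's rho was -0.94, with an exact permutation p of 0.0167 (adjusted p 0.375 over the 45 pairs of clock genes) and 0.110 for Pearson's r (adjusted p 0.734). Its r was -0.12 after the group means were subtracted, -0.67 without SS tumors 1 and 2, -0.91 without SS tumor 1 alone and -0.11 without SS tumor 2 alone. For Arntl and Nr1d1, which is both a target and a repressor of it, the exact permutation p of r was 0.417 (adjusted p 0.841), rho was 0.43 and r without SS tumors 1 and 2 was 0.30. The sign was not stable, since r was -0.20 without SS tumor 1 alone, where 5 of the 6 Arntl pairs were below 0, and 0.88 without SS tumor 2 alone.

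**Figure D4:**
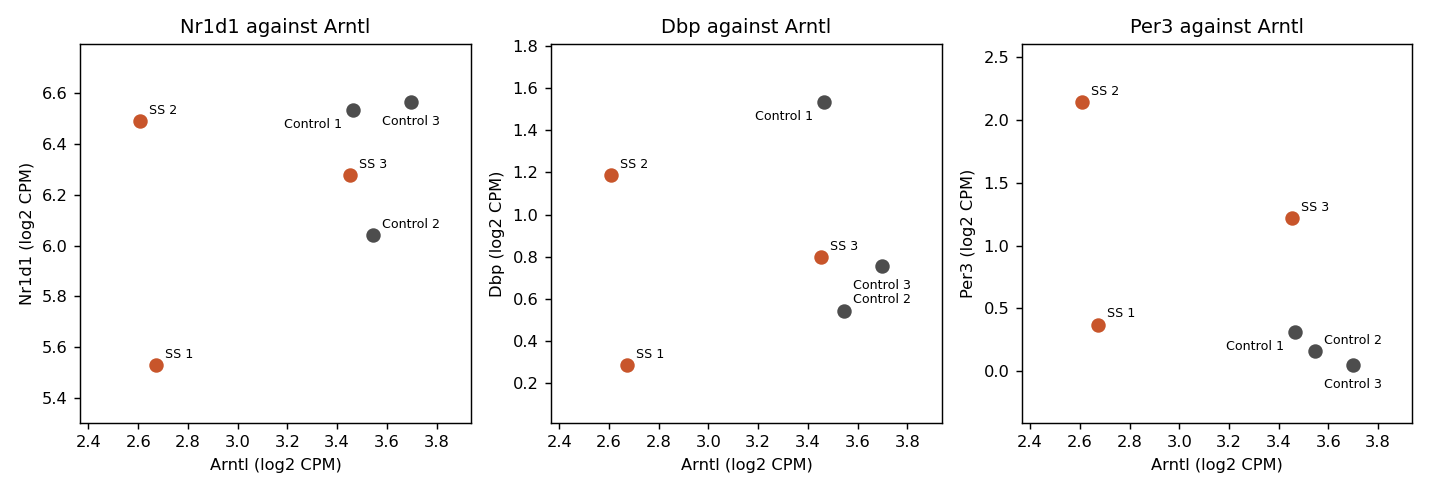
Nr1d1, Dbp and Per3 (y axes) against Arntl (x axes), all in log2 CPM, with 1 point per tumor, Control in grey and SS in orange. SS tumors 1 and 2 share the lowest Arntl but are the lowest and among the highest for Nr1d1, and of the pair only SS tumor 2 is high for Per3.

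SS tumors 1 and 2 were alike in Arntl but not in Nr1d1. Both had low Arntl, 6.24 and 5.96 CPM, whereas Nr1d1 was at 46.1 CPM in SS tumor 1 and at 89.7 CPM in SS tumor 2. The difference of log2 CPM between Nr1d1 and Arntl was 3.07, 2.49 and 2.87 in Control and 2.86, 3.88 and 2.82 in SS tumors, so SS tumor 2 stood above the others. The difference between Dbp and Arntl was -1.93, -3.00 and -2.94 in Control and -2.39, -1.42 and -2.66 in SS tumors, with SS tumor 2 again highest and Control tumor 1 next. The group means were 2.81 ± 0.291 against 3.19 ± 0.601 for Nr1d1 minus Arntl and -2.62 ± 0.602 against -2.15 ± 0.650 for Dbp minus Arntl (log2, SD, n = 3), and both overlapped.

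Among the genes of the opposite arm, most pairs had positive correlations. Of the 15 pairs within Per1, Per2, Per3, Nr1d1, Nr1d2 and Dbp, 10 had an r above 0, with a median of 0.441. The 5 pairs below 0 were those with Per2, and the 10 pairs without it, a choice made after the signs were seen, had a median of 0.593. Those signs were not stable, since without the 2 tumors farthest from the median 4 of the 10 pairs turned negative, to -0.58 for Per3 and Nr1d1, -0.89 for Per3 and Nr1d2, -0.23 for Nr1d1 and Nr1d2 and -0.34 for Nr1d2 and Dbp. Spearman's rho of Per3 and Nr1d1 was also below 0, at -0.31. With the group means subtracted, all of the 10 pairs stayed above 0, from 0.44 for Nr1d2 and Dbp to 0.95 for Per1 and Nr1d1. Over all 45 pairs of clock genes 27 were above 0, with a median of 0.205, and 4.44% reached 0.8, against 49.9% above 0, a median of -0.001 and 3.07% reaching 0.8 over 55098753 pairs of genes with a mean of at least 1 CPM. These are descriptions over the same 6 libraries, which differ in depth and in the genes of other tissues, and every pair is read from those libraries.

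By exact permutation test, 0 of the 45 pairs had an adjusted p under 0.05 by Pearson's r or by Spearman's rho, with 3 and 2 pairs at an unadjusted p under 0.05. Nr1d1 and Nr1d2, paralogs with the same role, had an r of 0.84 (rho 0.71, exact permutation p 0.0319 and 0.136, adjusted 0.479 and 0.716). That relation leaned on the low SS tumor 1, since r was 0.44 without it alone and 0.83 without Control tumor 2 alone. Without both of these tumors r was -0.23. Nr1d1 and Dbp, both direct targets of the activators, had an r of 0.80 (rho 0.66, exact permutation p 0.0542 and 0.175, adjusted 0.609 and 0.716), which was 0.38 without the same 2 tumors. SS tumor 1, lowest for Nr1d1, Nr1d2 and Dbp, was also lowest for skeletal muscle genes, and Control tumor 1, highest for Dbp, was highest for adipocyte genes, and the part of either tissue in these relations was not tested.

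By Pearson's r the closest relation was an inverse one. Of the 45 pairs 1 lay at -0.8 or below, beside 1620417 of the 55098753 gene pairs given above. By Spearman's rho Arntl and Per3 were as close, at -0.94. Per2 and Dbp, which in a running clock peak within hours of each other, had an r of -0.93 (rho -0.94, exact permutation p 0.00556 and 0.0167, adjusted 0.250 and 0.375). It was -0.95 with the group means subtracted, between -0.97 and -0.86 with each tumor left out, and -0.76 without Control tumor 1 and SS tumor 1. Both genes rest on few counts, 7 to 37 for Per2 and 15 to 38 for Dbp. Per3 and Cry2, the genes above Control in every SS tumor, had an r of 0.86 (rho 0.83, exact permutation p 0.0139 and 0.0583, adjusted 0.313 and 0.716), which was 0.68 with the group means subtracted and 0.49 without SS tumors 2 and 3. Nr1d1 and Per1 had an r of 0.62, and of 0.95 with the group means subtracted (0.84 without Control tumor 2 and SS tumor 3, rho 0.37, exact permutation p 0.185 and 0.497, adjusted 0.734 and 0.895).

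**Figure D5:**
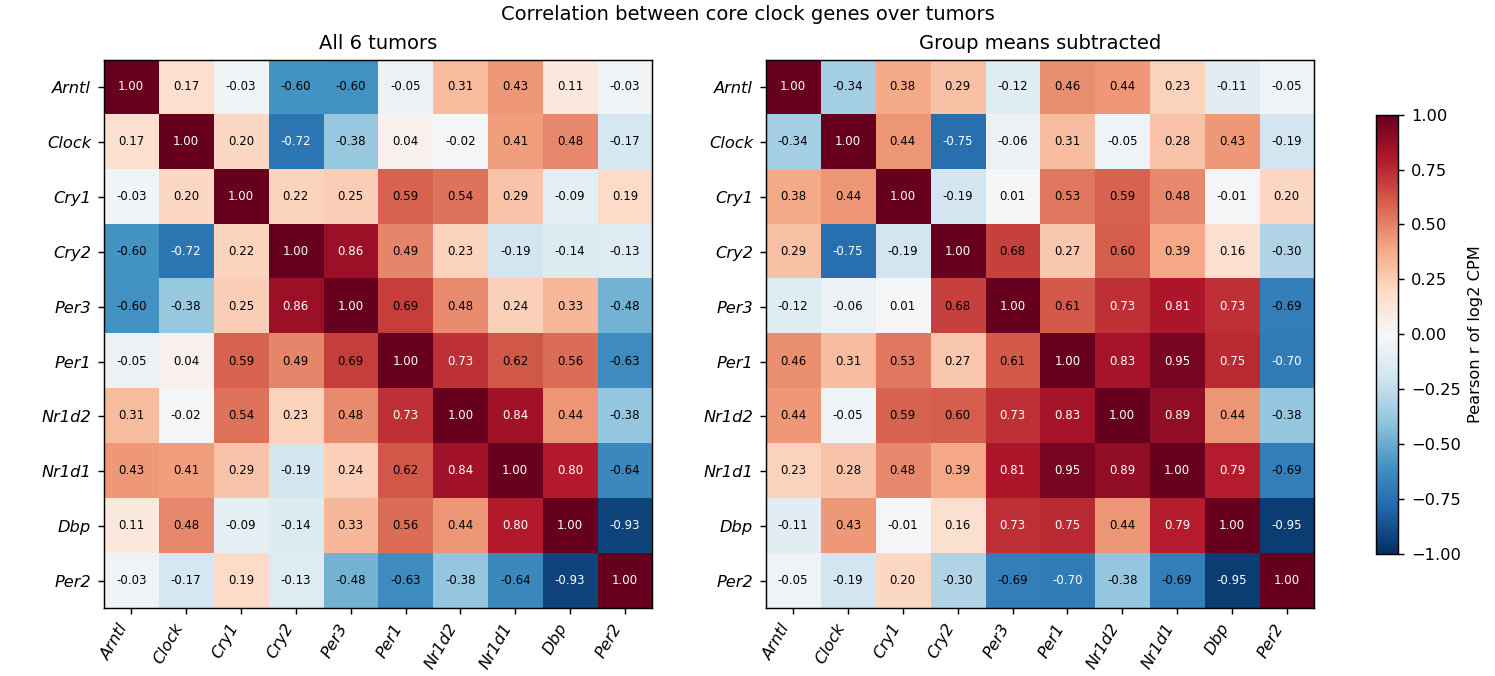
Pearson correlation of log2 CPM between the 10 clock genes over the 6 tumors (left) and after subtracting the group means (right), from -1 (blue) to 1 (red). Per1, Per3, Nr1d1, Nr1d2 and Dbp form a block of positive values from which Per2 stands apart, and the Arntl row holds both signs.

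Genes outside the core loop with the pattern most like Arntl or Dbp over the 6 tumors were named by rank of r among 10497 genes, as a description with no test. Dbp was followed most closely by Dhx35 (r 0.99), Sp2, Gpn3, Samd5 and Fndc1, and ran most against Tnfsf12 (r -0.99), Alox15 and Zc3hc1. Its relatives Tef and Hlf, which bind the same D-box and were named for that after their values were seen, had an r of 0.74 and 0.71 with it, at ranks 476 and 585, and Nr1d1, the nearest clock gene, was at rank 281. Arntl was most closely followed by Fam117b (r 0.99), Zfp91, Adamts12, Dhx32 and Lsm14b, and ran against Grrp1 (r -0.996), Crip1 and Fam35a. The clock gene nearest to it, Nr1d1, was at rank 2490.

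The regulators around the loop, which include the kinases and ubiquitin ligases that set PER and CRY turnover, were taken from a list of 17 genes, of which 15 were tested and Arntl2 and Fbxl21 were not analysed here. By edgeR 3 had a log2 fold change above 0 and 12 below 0, with a median of -0.19, and 0 had an unadjusted p under 0.05, beside 49.8% above 0 and 6.36% at that threshold over all tested genes, the shares against which the lists that follow are also to be set. The smallest p belonged to Fbxw11, a ligase subunit that targets PER, at 102, 104 and 123 CPM in Control and 88.1, 92.6 and 102 CPM in SS tumors (log2 fold change -0.22, unadjusted p 0.0955, adjusted p 0.792 by edgeR), and to Csnk1e, a PER kinase (-0.19, unadjusted p 0.103, adjusted p 0.800). The groups did not overlap for 3 of the 15, Fbxw11 and, named after their values were seen, the kinases Csnk1d and Gsk3b, all lower in SS, beside 12.9% of all tested genes (6.4% lower in SS). Rora, a receptor that activates Arntl against NR1D1, had a log2 fold change of -0.31 (unadjusted p 0.358, adjusted p 0.906 by edgeR) and was named for that role after its values were seen.

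Clock outputs were read from 13 genes, all tested, of which 5 had a log2 fold change above 0 and 8 below 0, with a median of -0.09. Bhlhe40 (DEC1), a repressor that competes for E-boxes, had an unadjusted p under 0.05. It was at 258, 216 and 299 CPM in Control and 194, 177 and 170 CPM in SS tumors, every SS tumor below every Control tumor. Its log2 fold change was -0.51 ± 0.133 (SE; unadjusted p 0.00528, adjusted p 0.760 by edgeR), and over the 6 tumors its r was 0.62 with Arntl and 0.20 with Dbp. Groups did not overlap for 2 of the 13, Bhlhe40 and Noct, beside 12.9% of all tested genes (6.4% lower in SS). Noct, a deadenylase, was at 18.5 ± 1.76 CPM in Control and 14.2 ± 2.18 CPM in SS (SD, n = 3, adjusted p 0.790 by edgeR), and was named after its values were seen. Usp2, at 8.14, 6.29 and 7.47 CPM in Control and 2.32, 15.6 and 4.31 CPM in SS tumors, was chosen in the same way, and shared with Nr1d1 its lowest value in SS tumor 1.

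Per1 is also an immediate early gene and a target of the glucocorticoid receptor, so genes of both kinds were set beside it. Of 11 glucocorticoid-induced genes, 3 were above 0 and 8 below 0, with a median log2 fold change of -0.06. Tsc22d3 (GILZ) was at 33.9, 27.7 and 33.0 CPM in Control and 45.1, 61.6 and 69.7 CPM in SS tumors, with all SS tumors higher (log2 fold change 0.90 ± 0.181 (SE), unadjusted p 0.00123, adjusted p 0.679 by edgeR). Fkbp5, another standard target, was at 2.45, 2.21 and 1.11 CPM in Control and 2.18, 1.79 and 3.55 CPM in SS tumors (0.39, unadjusted p 0.446, adjusted p 0.922 by edgeR). Of 10 immediate early genes 9 were tested and all 9 had a log2 fold change below 0, with a median of -0.42, beside 49.8% of all tested genes above 0. An unadjusted p under 0.05 was found for Egr1 (-1.70), Junb (-0.45) and Egr2 (-0.42), named after their values were seen, with adjusted p of 0.679, 0.771 and 0.771 by edgeR, beside 6.36% of all tested genes at that unadjusted threshold. The difference between Per1 and these genes was not tested.

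Counts over the lists of other cell types complete the picture of tissue makeup, by edgeR and with 0 genes of any list past adjustment. All 7 skeletal muscle genes had a log2 fold change above 0 (median 0.83, 0 at an unadjusted p under 0.05). Of 5 adipocyte genes tested, 4 were above 0 (median 0.28, 0 at that threshold). Of 7 myeloid genes, 4 were above 0 (median 0.11) and 2 passed the unadjusted threshold, Itgax at 1.24 and Cd14 at -0.59. Of 5 endothelial genes, 4 were above 0 (median 0.44) and Vwf passed it with a higher level in SS, Cd3e was the only T cell gene tested (-0.82), and of 14 TNBC and claudin-low genes 4 were above 0 (median -0.09) and Krt18 passed it at -0.50. Itgax, Cd14, Vwf and Krt18 were named after their values were seen. The part of these cells in the levels of the clock genes was not tested beyond the muscle and adipocyte covariates.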

How the data were processed

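RNA of 6 C0321 tumors, 3 Control and 3 SS, had been sequenced by the authors from stranded, polyadenylated libraries in pairs of 75 nucleotides. The submitters' processing notes name CASAVA 1.8.1, Bowtie2 2.2.5, STAR 2.5.3a and mm10, without their roles. The counting tool and its strand setting are not given in the sources used here. For each RefSeq transcript the authors deposited estimated counts, not normalized, with entries of low expression removed, and every transcript held at least 10 counts over the 6 tumors. Their methods name quantile normalization, a t statistic and a false discovery rate, none of which had been applied to the table.

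Here 45 transcripts whose symbols had turned into dates were given back their 22 symbols from the RefSeq identifiers, counts were summed per gene symbol and rounded, and SS was compared with Control over all 10902 genes that passed filterByExpr, with edgeR 4.0.16 (R 4.3.3), TMM scaling (factors from 0.981 to 1.03) and the quasi-likelihood test, adjusted by Benjamini-Hochberg. CPM are scaled by TMM. The SE of a change was derived from its size and the F statistic. Totals of 8468914 to 24441522 counts set the precision, and 95% Poisson intervals and the limit of 3 counts cover counting error only. Correlations were tested over all 720 orders of the 6 tumors, again without the 2 tumors farthest from the median of the first gene, and adjusted over 45 pairs. Alternatives were RLE and upper-quartile scaling, DESeq2 1.42.0, limma-voom (limma 3.58.1), quantile normalization with a t statistic, other filters, the replicate number as a block, each tumor left out and, for correlations, another prior count, thinning to the smallest library and subtracted group means. Covariates for muscle and adipocyte genes were added after seeing the data. The code was tested on simulated data.

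All 10 clock genes are named. Of the regulator and output lists, genes with an unadjusted p under 0.05 or else the 2 with the smallest p are named, of the glucocorticoid list Tsc22d3, Fkbp5 and the gene with the smallest p, and for likeness of pattern the 5 highest and 3 lowest by r among genes with a mean of at least 1 CPM. Values of 1 gene of the regulator list are not reported here. The clock genes and all lists were chosen with earlier results of these data known. The replicate numbers come from the sample titles. Deviations from the group means correlated at 0.116, 0.0205 and 0.0767 for numbers 1, 2 and 3, so the numbers were not taken to pair the tumors. Promoter windows are RefSeq's on GRCm38.p6, and transcript lengths and exons are GENCODE's release M21 on GRCm38.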

Additional observations from a re-analysis of the deposited data

How the results depend on the processing

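No clock gene had an adjusted p under 0.05 in any alternative run, and over all genes only DESeq2's Wald test gave any (35). The count of clock genes at an unadjusted p under 0.05, which was 1, was 0 with DESeq2, with no filter on low counts and with either the muscle or the adipocyte covariate, and 0 to 1 with each tumor left out (0 without Control tumor 1, 2 or 3 or SS tumor 2). Which gene it was depended on the test: Per3 with RLE or upper-quartile scaling, the filter of 1 CPM in 3 tumors and without SS tumor 1, Arntl with limma-voom (unadjusted p 0.0342), with the replicate block and without SS tumor 3, and Cry2 with quantile normalization and a t statistic (unadjusted p 0.0212 by the t statistic of the study's methods). The replicate block left 643 genes at an unadjusted p under 0.05, 479 of them among the 693 without it, with Arntl at -0.66 (edgeR, unadjusted p 0.0373, adjusted p 0.815) and Per3 at 1.18 (unadjusted p 0.112). Over all genes the unadjusted count ran from 520 to 877 with each tumor left out.

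The log2 fold changes of Arntl, Clock, Per1, Per3, Cry2 and Nr1d1 kept their direction in every alternative run. Per2 turned to 0.18 with quantile normalization and to 0.24 with the adipocyte covariate, and Nr1d2 to 0.00038 with the filter of 1 CPM and to 0.055 with that covariate. With each tumor left out, Per2 ran from -0.42 to 0.21, Cry1 from -0.037 to 0.55, Nr1d2 from -0.12 to 0.18 and Dbp from -0.48 to 0.15. The number of Arntl pairs below 0, which was 3 of 6, ran from 2 to 5 with each tumor left out (5 without SS tumor 1), Arntl and Nr1d1 from -0.20 to 0.88, and Arntl and Dbp from -0.40 to 0.49. Arntl and Dbp turned to -0.052 after thinning and to -0.11 with group means subtracted. The causes were not tested. Depth limits Per2, Per3 and Dbp most, with at most 38 counts in a tumor.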
